A study of Mus musculus with 105 samples.

Results

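The Lif-Stat3 pathway genes Socs3, Stat3, Lifr, Il6st and Bcl3 and the kinase genes Pim1, Pim2 and Pim3 were followed through the first days of differentiation of female mouse embryonic stem cells (mESCs). These 8 genes were chosen by name, as components or known targets of Lif signalling and the Pim kinase family. The choice was made with earlier results of these data known, so counts of these genes set beside all genes are a description. Each was read from its own row among the 52016 genes of the bulk count tables and the 34120 genes of the single-cell table. All 8 passed the filter on low counts in the bulk data.

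Lif is a cytokine that binds the receptor Lifr together with the signal transducer Il6st (gp130). The receptor pair activates Jak kinases, which phosphorylate Stat3, and Stat3 then enters the nucleus and switches on genes such as Socs3, whose protein inhibits the same receptor. In mESC culture Lif is added, together with inhibitors of MEK and Gsk3 (2i), to keep the cells undifferentiated. Pim kinases are serine/threonine kinases that act on growth and survival and are controlled largely through the amount of their mRNA and protein.

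The line TX1072 (clone A3) is an F1 hybrid of the strains B6 and Cast. Its B6 copy of Xist sits behind a doxycycline-responsive promoter, with an rtTA transgene in Rosa26. The derivatives TXdXicB6 (clone TxdXic_A1) and TXdXicCast (clone TxdXic_A6) come from this line and lack the region around Xist on the B6 or the Cast X chromosome. TXdXicB6 thus lacks the B6 copy of Xist with that promoter, and TXdXicCast keeps it. Each deletion line is a single clone. Cells in 2i/Lif medium on gelatin made up day 0. Samples of days 1, 2, 3 and 4 came after withdrawal of Lif and both inhibitors, with less serum in the medium. These cells were also plated at a set density on fibronectin in place of gelatin, so that the effects of the single changes cannot be told apart. Bulk RNA-seq comprised 3 replicates per line and day, 45 libraries in all, with 19827011 to 39628784 counts per library in TX1072, 20246434 to 49962859 in TXdXicB6 and 16906263 to 57920260 in TXdXicCast. Single TX1072 cells of 1 culture per day were counted with unique molecular identifiers (UMIs), and 1472 cells that passed quality control were used.

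The RNA of the 3 TXdXicCast libraries of day 0 was degraded and fragmented more mildly than the rest, so in every comparison with that group RNA quality and day cannot be told apart. A pair of TXdXicB6 libraries held a low share of counts assignable to an allele, 5.21% in replicate 1 of day 0 and 9.57% in replicate 2 of day 2. The TX1072 and deletion-line libraries were made with different kits and sequencers and were normalised separately, so levels were not tested between them. Bulk levels are given as CPM, counts scaled to a common library size with TMM factors, as mean ± SD of 3 libraries. In bulk RNA a lower level per cell and a smaller number of expressing cells cannot be told apart.

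Of the 8 genes, Pim2 lies on the X chromosome (chrX:7878262-7883432, mm10, plus strand), and the others are autosomal. Socs3 (chr11:117966079-117970047, minus) and Stat3 (chr11:100885098-100939540, minus) share chromosome 11, and Lifr (chr15:7090614-7197489, plus) and Pim3 (chr15:88862186-88865726, plus) share chromosome 15. Il6st lies at chr13:112464070-112510086 (plus), Pim1 at chr17:29490753-29496112 (plus) and Bcl3 at chr7:19808462-19822770 (minus). Exons of Stat3, Pim1 and Bcl3 overlap those of the antisense genes Stat5a, Gm26885 and Gm16175 over 72, 488 and 161 bp. The strand setting of the counting is not given in the sources used here, so reads in these stretches are uncertain.

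Stat3 is known to bind the palindrome TTCNNNGAA. In RefSeq promoters (250 bases before to 50 after the start, GRCm38.p6), matched for 8 of 8 genes through 10 promoters, Socs3 alone held these letters, against 8.3% of 32851 promoters. The narrower TTCCNGGAA, which is contained in TTCNNNGAA, was in none of the members' windows and in 1.15% of all promoters. Both motifs read the same on either strand. The stretch around the Socs3 match is shown because Socs3 had the steepest first-day fall of the 8 genes in TX1072. The match is in capitals, 154 to 146 bases before the RefSeq start at chr11:117969366. The stretch (chr11:117969471-117969561, minus strand) lies within the longer gene interval given above, outside the annotated exons of Socs3.
Socs3: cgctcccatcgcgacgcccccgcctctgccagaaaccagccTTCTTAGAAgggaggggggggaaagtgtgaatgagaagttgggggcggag
A match is a description of letters in the window, and no data on binding were analysed here.

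The question of the first comparison was what happened to the 8 genes within a day of withdrawal. In TX1072, Socs3, Bcl3, Stat3, Il6st and Pim1 fell, Pim2 rose, and Lifr and Pim3 did not pass the test (edgeR quasi-likelihood test, Benjamini-Hochberg adjusted p under 0.05). Thus 1 of the 8 genes was higher and 5 were lower, where 23.5% and 23.4% of the 18871 genes tested were higher and lower. The median log2 fold change was -0.75 over the 8 genes and -0.01 over all genes tested.

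Socs3, the feedback inhibitor of the receptor, was at 65.0, 71.1 and 64.2 CPM in the 3 libraries of day 0 and at 4.72, 7.89 and 5.34 CPM at day 1. Each library of day 0 thus lay far above every library of day 1. The fall was 11.1-fold (log2 fold change -3.47 ± 0.17 (SE), adjusted p = 1.93e-11, edgeR). Socs3 fell a further 2.81-fold to day 2, when the libraries held 2.21, 2.06 and 2.15 CPM (adjusted p = 2.49e-06, edgeR). From day 2 to day 3 Socs3 rose 2.87-fold (adjusted p = 6.80e-06, edgeR), to 6.14 ± 0.42 CPM. The day 4 level of 7.44 ± 0.99 CPM did not differ from that of day 3 by the test (adjusted p = 0.23, edgeR), and it stayed 8.98-fold below day 0 (adjusted p = 1.22e-11, edgeR).

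Bcl3 encodes a nuclear IkappaB-like protein that works with NF-kappaB subunits and is a known target of Stat3. Its 3 libraries of day 0 held 32.9, 41.8 and 42.5 CPM, those of day 1 held 3.87, 6.21 and 5.04 CPM, and by day 2 they were down to 0.647, 0.971 and 0.682 CPM. The libraries of these days did not overlap. Bcl3 fell 7.72-fold in the first step (log2 fold change -2.95 ± 0.20, adjusted p = 1.57e-09, edgeR) and 6.51-fold in the second (adjusted p = 7.62e-08, edgeR). Between days 3 and 4 it rose 2.91-fold from 0.561 ± 0.207 to 1.56 ± 0.25 CPM (adjusted p = 7.20e-04, edgeR). At day 4 Bcl3 was 24.9-fold below day 0 (adjusted p = 5.79e-12, edgeR), a larger fall than that of any other of the 8 genes.

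Stat3, the transcription factor of the pathway, fell within the first day and then stayed low. It was at 81.7, 109 and 77.0 CPM at day 0 and at 12.9, 14.5 and 13.3 CPM at day 1, a 6.59-fold fall (log2 fold change -2.72 ± 0.13, adjusted p = 2.15e-11, edgeR). Levels of days 1 and 2 (13.6 ± 0.8 and 14.4 ± 0.6 CPM) were not told apart by the test (adjusted p = 0.648, edgeR). The step to day 3 was small (log2 fold change -0.38 ± 0.13, adjusted p = 0.037, edgeR), and it lost the threshold with DESeq2 (adjusted p = 0.0514), without a filter on low counts (adjusted p = 0.0654) and when single libraries were left out (adjusted p up to 0.111). From day 3 to day 4 Stat3 rose 2.37-fold to 27.5, 27.6 and 23.4 CPM (adjusted p = 2.39e-06, edgeR), with every library of day 4 above every library of days 1 to 3.

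The receptor genes followed a slower course. Lifr, the ligand-binding chain for Lif, was at 76.9, 76.4 and 71.1 CPM at day 0 and at 72.0, 61.7 and 75.8 CPM at day 1, and these ranges overlapped (log2 fold change -0.10 ± 0.15, adjusted p = 0.611, edgeR). Lifr then fell 4.98-fold to 11.6, 12.4 and 17.9 CPM at day 2 (log2 fold change -2.31 ± 0.16, adjusted p = 3.02e-09, edgeR). Neither later step of Lifr passed the test. Il6st, the chain shared by the receptors of the Il6 family, went from 181, 182 and 153 CPM at day 0 to 94.1, 91.3 and 95.7 CPM at day 1 (1.84-fold lower, adjusted p = 5.90e-06, edgeR). It fell again, 1.97-fold, to day 2 (adjusted p = 2.69e-06, edgeR) and rose 1.53-fold from day 3 to day 4 (adjusted p = 8.06e-04, edgeR). Lifr and Il6st were 5.51-fold and 2.88-fold lower at day 4 than at day 0.

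The 3 Pim kinase genes followed different courses. Pim2 began with 11.2, 13.4 and 15.6 CPM in the libraries of day 0, had 124, 123 and 109 CPM a day later, and 503, 487 and 560 CPM on day 2. No 2 of these days overlapped. Its rise was 8.88-fold in the first step (log2 fold change 3.15 ± 0.13, adjusted p = 3.17e-12, edgeR) and 4.36-fold in the second (adjusted p = 4.92e-10, edgeR). Pim2 then fell 1.47-fold to day 3 (adjusted p = 0.00173, edgeR) and 1.89-fold to day 4 (adjusted p = 2.10e-05, edgeR), when the libraries held 200, 191 and 168 CPM. Even so, Pim2 stayed 13.9-fold above day 0 at day 4 (log2 fold change 3.80 ± 0.13, adjusted p = 9.57e-14, edgeR).

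Pim1, a known target of Stat3, dipped and returned. Its day 0 libraries held 209, 166 and 212 CPM, and those of the following days 123, 131 and 130 CPM (day 1) and 112, 95.7 and 93.8 CPM (day 2). The first step was 1.53-fold lower (adjusted p = 6.70e-04, edgeR), and the second was 1.27-fold lower (adjusted p = 0.0376, edgeR), a call that was lost without any of 5 single libraries (adjusted p up to 0.128): each of the 3 of day 1, and replicates 2 and 3 of day 2. Pim1 rose 1.91-fold from day 2 to day 3 (adjusted p = 3.40e-05, edgeR), and day 4, at 191 ± 29 CPM, was not told apart from day 0, at 196 ± 26 CPM (log2 fold change -0.03 ± 0.13, adjusted p = 0.838, edgeR).

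Pim3 was low on a single day. Day 0 libraries had 78.6, 71.0 and 83.2 CPM, day 1 libraries had 81.3, 91.7 and 80.1 CPM, and the 3 libraries of day 2 ranged from 40.7 to 41.2 CPM. It fell 2.06-fold into day 2 (adjusted p = 2.92e-07, edgeR) and rose 1.90-fold out of it (adjusted p = 3.68e-06, edgeR). The libraries of day 2 lay below those of all other days.

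**Figure D1:**
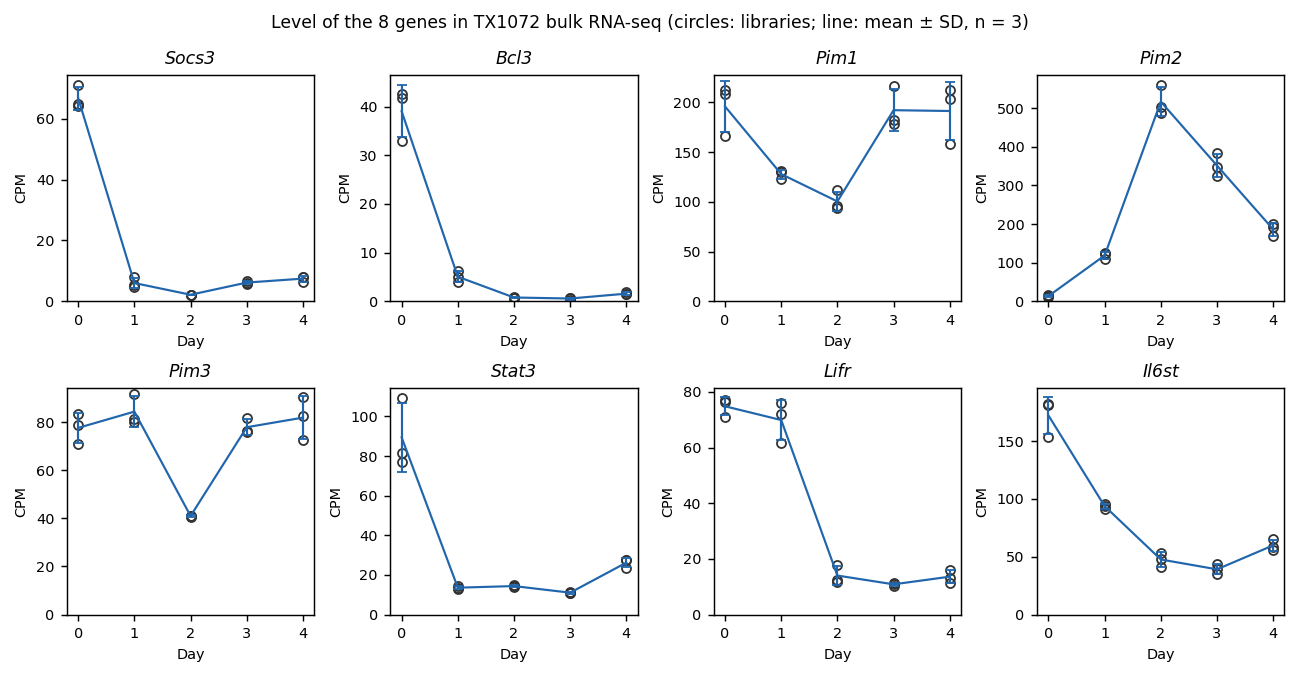
Level of the 8 genes (CPM, vertical axis from 0, scaled per gene) by day of differentiation in TX1072, with libraries as circles and the mean ± SD of 3 libraries as a line. Pim2 climbs from 13.4 to 517 CPM by day 2, while Socs3 drops from 66.8 to 5.98 CPM within a day.

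Counted over the later steps, 1 of 8 genes was higher and 6 were lower from day 1 to day 2 (20.3% and 18.9% of all genes tested), 3 were higher and 2 lower from day 2 to day 3 (13.8% and 12.9%), and 3 were higher and 1 lower from day 3 to day 4 (16.0% and 11.9%). From day 0 to day 4, 1 was higher and 5 were lower (30.2% and 29.4%). The genes that rose from day 3 to day 4 were Stat3, Il6st and Bcl3.

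Per kilobase of exon, Pim1 had the highest level of the 8 genes at day 0, 58.3 CPM per kb, followed by Pim3 with 32.0, Socs3 with 23.1, Bcl3 with 15.8, Il6st with 15.5, Stat3 with 9.38, Lifr with 6.94 and Pim2 with 4.79 CPM per kb. Bcl3 and Il6st differed by less than the spread between replicates. By day 2 Pim2 had moved from the bottom of this order to the top, with 185 CPM per kb, and Bcl3 to the bottom, with 0.310 CPM per kb.

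Among the 5 genes whose log2 CPM followed Socs3 most closely over the 15 TX1072 libraries, of 10349 genes whose day means spanned at least 1 on the log2 scale, were S100a13 (Pearson r = 0.988), Gjb5 (0.985), Dio3 (0.980) and Anp32a (0.979). For Pim2 the closest genes were Enpp2 (0.992), Myb (0.991), Bcl11a (0.990), Cthrc1 (0.988) and Acsl5 (0.988). Myb, a transcription factor gene, had means of 3.15, 15.6, 48.0, 43.9 and 21.9 CPM over days 0 to 4. These correlations share libraries and days and are a description.

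Other genes around the pathway were taken from lists. Among cytokines of the Lif family, 1 of 6 genes tested was higher and 2 were lower at day 1 in TX1072. Osm, a cytokine that signals through Il6st, fell 5.43-fold, and Clcf1 2.98-fold (adjusted p = 0.0564 without replicate 2 of day 1, edgeR). Il11 rose from 1 or 2 counts per library, 0.0379 to 0.0541 CPM, to 0.117 to 0.247 CPM, and lost the threshold without replicate 2 of either day (adjusted p up to 0.0768, edgeR) and with DESeq2 (adjusted p = 0.0647). At day 4 Il11, Clcf1 and Lif were higher than at day 0, Lif by 2.31-fold, and Osm was 35.5-fold lower. Il6 was too low to be tested.

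Of 12 other receptors, kinases and Stats, 3 were higher and 6 lower at day 1. Il6ra, the Il6-binding receptor chain, fell from 22.2, 23.9 and 25.3 CPM to 2.51, 2.99 and 4.16 CPM, a 7.39-fold fall (log2 fold change -2.89 ± 0.19, adjusted p = 7.17e-10, edgeR). Cntfr, the receptor chain for ciliary neurotrophic factor, was at 0.108, 0.189 and 0.0899 CPM at day 0, 2 to 5 counts per library, and at 6.64, 11.1 and 7.41 CPM at day 1 (log2 fold change 5.99 ± 0.40, adjusted p = 1.07e-09, edgeR). Osmr, a receptor chain for Osm, held 7, 0 and 8 counts in the libraries of day 0 and 0, 1 and 1 counts in those of day 1, and its lower call was lost when day 0 replicate 1, day 0 replicate 3 or day 1 replicate 1 was left out (adjusted p up to 0.104, edgeR). Stat5b fell 2.92-fold by day 1 and was 2.90-fold above day 0 at day 4. From day 3 to day 4, 9 of the 12 were higher and 1 was lower, with a median log2 fold change of 1.02 beside 0.00 over all genes tested.

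Of 7 other inhibitors of Jak-Stat signalling, 1, the phosphatase gene Ptpn6, was lower at day 1 and none was higher. Cish, a relative of Socs3, was at 0.947, 1.21 and 1.75 CPM at day 0 and 4.75, 7.18 and 5.88 CPM at day 4, and rose 4.64-fold (adjusted p = 9.66e-07, edgeR). Socs1 was 2.44-fold higher at day 4 (log2 fold change 1.29, adjusted p = 0.00317, edgeR). With 1 library left out, its log2 fold change ranged from 0.913 to 1.88. Pias3 and Ptpn6 were 2.13-fold and 1.88-fold lower, so that 3 of the 7 were higher and 2 lower than at day 0.

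All 11 other genes known as targets of Lif or Stat3 passed the test at day 1, 5 higher and 6 lower. Klf4, a pluripotency factor, fell from 204, 199 and 266 CPM to 28.9, 36.4 and 33.7 CPM (6.75-fold, adjusted p = 2.54e-09, edgeR), and Tfcp2l1 fell 6.88-fold. In the other direction, Myc rose from 4.25, 12.3 and 8.59 CPM to 55.3, 90.3 and 71.2 CPM (8.70-fold, adjusted p = 6.00e-08, edgeR). Gbx2 rose 8.60-fold at day 1 and was below its day 0 level at day 4 (log2 fold change -2.76 ± 0.26, adjusted p = 3.50e-08, edgeR). Thus the targets moved in both directions within the first day. At day 4, 4 of the 11 were higher than at day 0, among them Myc by 3.56-fold, and 6 were lower, with Pramel7 335-fold, Klf4 50.4-fold, Tfcp2l1 26.4-fold and Tbx3 16.6-fold below day 0.

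Around Bcl3, 5 of 6 NF-kappaB genes were lower at day 1 and none was higher, with a median log2 fold change of -1.03. Rel fell 4.70-fold and Relb 4.37-fold. Of 4 Pim substrates, the cell-cycle inhibitor genes Cdkn1a and Cdkn1b and the apoptosis gene Bad were lower at day 1, by 3.45-fold, 2.45-fold and 1.57-fold, as mRNA.

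Genes known to respond to the 2i inhibitors were read in the same libraries. Of 7 targets of ERK and Wnt signalling, 4 were higher and 2 lower at day 1, and Spry4, an ERK feedback inhibitor, went from 0.0271, 0.227 and 0.135 CPM to 62.1, 105 and 90.9 CPM. Dusp6 rose 44.8-fold. All 5 formative markers were higher, with Fgf5 at 21.5, 16.3 and 12.8 CPM against 0.189, 0.114 and 0.0450 CPM at day 0. Of 7 pluripotency markers 6 were lower, and Prdm14 fell 13.1-fold. These changes coincided with those of the 8 genes, and the part of each withdrawn agent cannot be told apart.

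**Figure D2:**
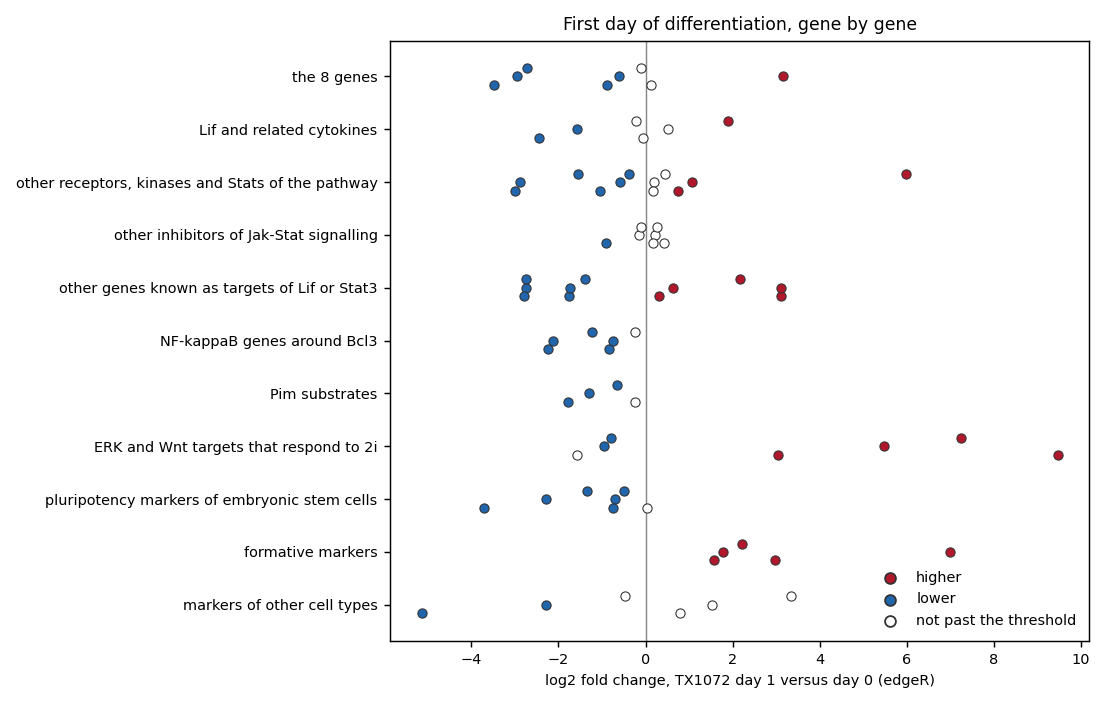
Log2 fold change from day 0 to day 1 in TX1072 (horizontal axis, edgeR) for the 8 genes and for the genes of each list (rows), with red and blue points for genes higher and lower at an adjusted p under 0.05 and open points for the rest. The 8 genes hold 1 red and 5 blue points, and the targets of Lif or Stat3 lie on both sides of 0.

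Markers of other cell types were low until day 3. Their sum over 8 genes was 16.7, 21.4 and 21.7 CPM at day 0, 2.56 to 7.28 CPM from day 1 to day 3 and 192, 109 and 79.4 CPM at day 4 in TX1072. At day 4 the most abundant was T (Brachyury), a marker of primitive streak and mesoderm, with 181, 98.4 and 70.3 CPM. T was also the most abundant of these markers in the undifferentiated TX1072 cells of day 0, and it fell 35.1-fold to day 1. Compared with day 0, 5 of the 6 tested were higher at day 4 and 1 was lower; the blood marker Ptprc and the endoderm marker Afp were too low to be tested. From day 3 to day 4, 5 of the 6 were higher, with a median log2 fold change of 2.30. The rise of Stat3, Il6st and Bcl3 and of the 9 receptors, kinases and Stats in this step fell on the same day as that of T. The part of T-expressing cells in this rise was not tested.

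The deletion lines were compared to see whether the course depended on the Xist allele that could be used. Xist counts matched the deletions: TXdXicB6 libraries held at most 9 Xist counts of the B6 allele against up to 12695 of Cast, and TXdXicCast libraries at most 7 of Cast against up to 6458 of B6. At day 1, Socs3, Stat3, Il6st, Pim1 and Bcl3 were lower and Pim2 was higher in both lines, 1 higher and 5 lower of 8 genes in each. In TXdXicB6 the call of Pim1 (log2 fold change -0.51) was lost without replicate 1 of day 0 (-0.29, adjusted p = 0.116, edgeR), and Pim3 passed as higher (adjusted p = 0.0256, edgeR). Among the 19885 genes tested, 23.9% were higher and 21.8% lower in TXdXicB6, and 30.6% higher and 28.3% lower in TXdXicCast.

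Socs3 was at 97.5, 72.0 and 64.5 CPM at day 0 and at 10.1, 6.61 and 7.68 CPM at day 1 in TXdXicB6 (9.58-fold lower, adjusted p = 1.63e-13, edgeR). In TXdXicCast it was at 99.2, 64.2 and 88.3 CPM and then at 8.21, 5.97 and 5.61 CPM (12.6-fold lower, adjusted p = 2.03e-14, edgeR). The day 0 group of the latter line is the one with degraded RNA. Bcl3 fell 10.1-fold in TXdXicB6 and 10.0-fold in TXdXicCast, and Stat3 6.42-fold and 7.88-fold. Lifr did not pass the test at day 1 in either line (adjusted p = 0.678 and 0.27, edgeR).

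From day 1 to day 4, 2 of the 8 genes were higher and 3 lower in both lines, where 27.9% and 28.7% of all genes were higher and lower in TXdXicB6 and 29.3% and 30.1% in TXdXicCast. Lifr, Il6st and Bcl3 fell in both. Pim1 rose in both, by 0.58 on the log2 scale in TXdXicB6 (adjusted p = 0.00158, edgeR) and 0.42 on the log2 scale in TXdXicCast (adjusted p = 0.0176, edgeR), the latter lost without replicate 2 of day 1 or without replicate 1 or 2 of day 4 (adjusted p up to 0.0846). The other gene that rose was Pim2 in TXdXicB6 and Stat3 in TXdXicCast. In TXdXicCast Pim2 changed by 0.38 on the log2 scale (adjusted p = 0.146, edgeR), and it passed as higher without replicate 3 of day 4 (0.60, adjusted p = 0.0244, edgeR).

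The mean level of Pim2 was highest at day 2 in each line. In TXdXicB6 the day 0 libraries held 25.3, 23.6 and 18.6 CPM, those of day 2 held 785, 762 and 798 CPM, those of day 3 held 760.5, 723 and 527 CPM, and day 4 ended with 518, 578 and 325 CPM. TXdXicCast libraries began with 26.8, 22.2 and 22.4 CPM, had 818, 654 and 972 CPM on day 2 and 698, 653 and 424 CPM on day 3, and ended with 311, 267 and 166 CPM. Days 2 and 3 overlapped in TXdXicCast, and the step between them was not tested in these lines. At day 4 every TXdXicCast library lay below every TXdXicB6 library.

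At day 4 Pim2 was 1.91-fold lower in TXdXicCast than in TXdXicB6 (log2 fold change -0.93 ± 0.22, adjusted p = 0.0103, edgeR). It was the only one of the 8 genes to pass in this comparison, in which 1.85% of all genes were lower and 4.01% higher. The call was lost without replicate 1 or 2 of TXdXicB6 or replicate 3 of TXdXicCast at day 4 (adjusted p up to 0.137). The difference between the lines in the change from day 1 to day 4 was -1.20 ± 0.31 on the log2 scale for Pim2 (adjusted p = 0.0711, edgeR), and it passed with the replicate number as a block (-1.21, adjusted p = 0.0274). None of the 8 genes passed in this test of the difference without the block, where 0.654% of all genes were higher and 0.0955% lower. For the step from day 0 to day 1 none passed either (2.66% and 1.94%), and Pim2, Socs3 and Bcl3 differed by 0.19 ± 0.32, -0.40 ± 0.26 and 0.01 ± 0.28 on the log2 scale. At an unadjusted p under 0.05, 2 of the 8 genes (Stat3 and Pim2) differed in the later change and 0 in the first step, where 10.7% and 21.6% of all genes did, and DESeq2 called 1 (Pim2, adjusted p = 0.0200) and 0.

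**Figure D3:**
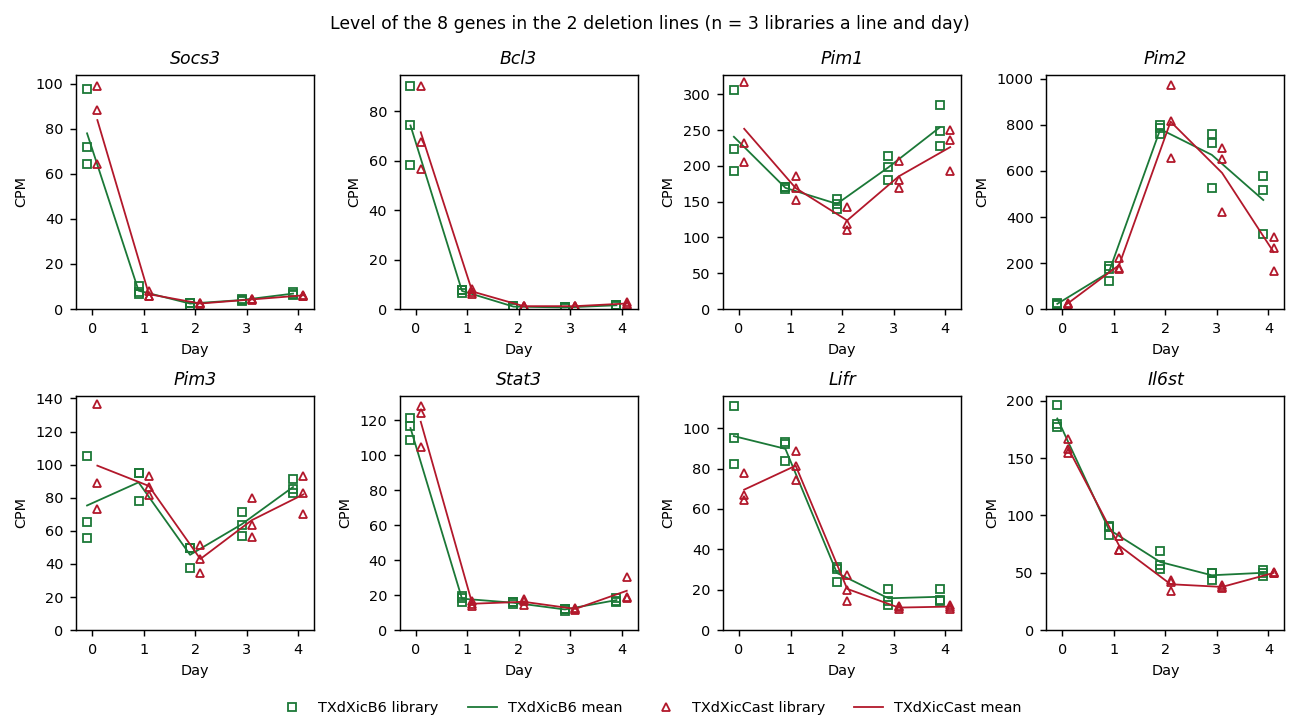
Level of the 8 genes (CPM, vertical axis from 0) by day in TXdXicB6 (green squares) and TXdXicCast (red triangles), with lines through the means of 3 libraries. For Pim2 all red points of day 4, 166 to 311 CPM, lie below the green ones, 325 to 578 CPM. Those of Il6st at day 2, 34.0 to 43.9 CPM, lie below the green ones, 52.9 to 68.6 CPM. The Il6st points are set apart in the same way at day 0 (154 to 167 and 177 to 196 CPM), day 1 and day 3, and overlap at day 4. Il6st was not tested between the lines at day 0, 1, 2 or 3.

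Replicate 3 of TXdXicCast at day 4 stood apart in the markers of other cell types. The T level was 90.8 CPM there, 18.7 and 11.4 CPM in the other replicates and at most 25.3 CPM in TXdXicB6. The same library held 30.2 CPM of Stat3 against 18.3 and 18.99 CPM in the others, and 166 CPM of Pim2 against 311 and 267 CPM. Without it the difference of Pim2 between the lines at day 4 was -0.71 on the log2 scale, and the part of T-expressing cells was not tested.

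As Pim2 is X-linked, reads that cover strain variants give the share of its B6 allele. In TXdXicB6, where the Cast chromosome is the one that can be silenced, the B6 share over days 0 to 4 was 45.5% ± 4.0, 44.1% ± 1.6, 51.9% ± 1.1, 63.4% ± 1.8 and 72.3% ± 1.3 (SD, n = 3). In TXdXicCast, where B6 can be silenced, it was 42.1% ± 1.2, 44.0% ± 1.6, 44.4% ± 1.9, 35.1% ± 1.6 and 28.6% ± 3.0. The shares of day 4 lay on opposite sides of 50% in the 2 lines, with no overlap with day 0. At day 0 they rest on 17 to 123 allele counts per library in TXdXicB6 and 66 to 125 in TXdXicCast, at day 4 on 742 to 3423.

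The log2 ratio of B6 to Cast rose by 1.57 ± 0.24 from day 0 to day 4 in TXdXicB6 (adjusted p = 1.20e-10, edgeR over 627 X-linked genes, of which 54.2% passed) and fell by 0.78 ± 0.21 in TXdXicCast (adjusted p = 7.96e-04, edgeR, 41.5% passed). The medians over these X-linked genes were 1.23 and -0.68. Day 1 holds more allele counts than day 0 and none of the libraries reported as degraded. Compared with day 1, the changes of Pim2 were 1.71 ± 0.10 and -0.92 ± 0.10 (adjusted p = 1.15e-68 and 4.69e-18, edgeR, 59.3% and 45.1% passed). The sum of both changes, which is 0 where the ratio shifted by the same log2 amount in each line, was 0.79 ± 0.31 from day 0 (adjusted p = 0.0414, edgeR, 28.4% passed) and 0.79 ± 0.14 from day 1 (adjusted p = 2.20e-07, edgeR, 31.1% passed), so the shift of the silenced allele relative to the active one was larger in TXdXicB6. The ratio does not give the level of either allele. The medians of this sum over the X-linked genes were 0.50 and 0.50. Both uses of the allele counts in this sum were chosen after the values were seen. The fit shares its estimate of spread over the X-linked genes, so its very small p-values do not measure the spread of Pim2 between replicates alone.

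The share of Pim2 was set beside that of the other X-linked genes in the same libraries. At day 1 it was 44.1% ± 1.6 for Pim2 and 50.6% ± 0.1 for the other X-linked genes together in TXdXicB6. In TXdXicCast the day 1 shares were 44.0% ± 1.6 and 49.5% ± 0.1. Pim2 thus started lower in both lines, and the gaps of later days include this starting gap. In TXdXicB6 at day 2 the B6 share was 51.9% ± 1.1 for Pim2 and 57.1% ± 0.8 for the other X-linked genes together. At day 4 it was 72.3% ± 1.3 and 68.3% ± 1.2. In TXdXicCast the share of Pim2 at day 2, 44.4% ± 1.9, stood against 42.2% ± 1.0, and at day 4 28.6% ± 3.0 stood against 38.2% ± 0.4. These pairs of shares are a description, as their difference was not tested.

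In TX1072 either X chromosome can be silenced, and the B6 share of Pim2 was 44.7% ± 14.9 at day 0, on 26 to 48 counts per library, and 48.1% ± 2.1 at day 4, on 507 to 727. The log2 ratio changed by 0.007 ± 0.246 (adjusted p = 1, edgeR over 528 X-linked genes, of which 9.28% passed). The day 0 counts cannot show a small shift.

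**Figure D4:**
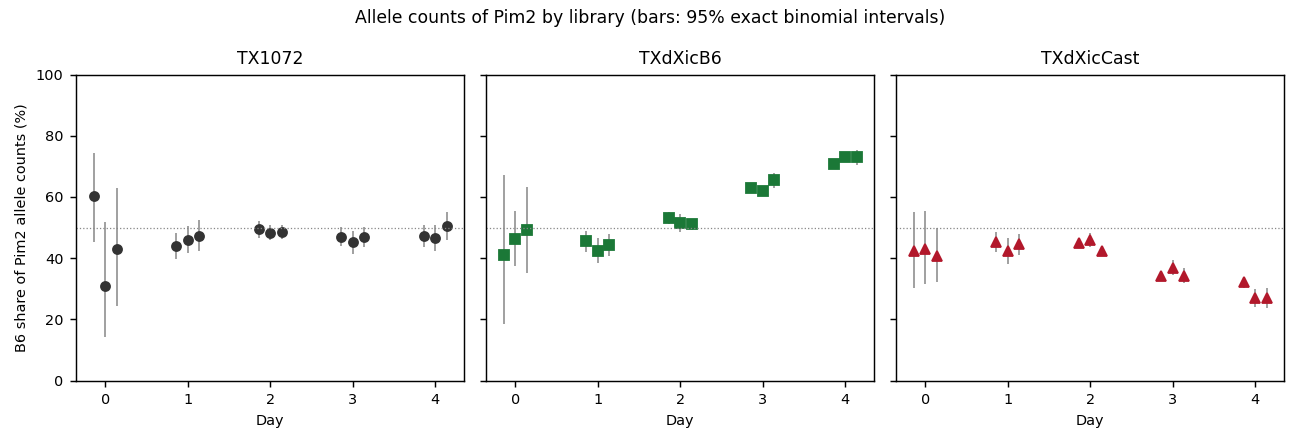
B6 share of the allele counts of Pim2 (percent, vertical axis from 0 to 100) by day in each line, with 1 point per library and bars for 95% exact binomial intervals, which cover counting error only; the dotted line marks an equal share. The points climb to 70.9 to 73.2% in TXdXicB6, drop to 26.8 to 32.1% in TXdXicCast and in TX1072 scatter from 30.8 to 60.4% at day 0 and lie between 46.6 and 50.5% at day 4.

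Single cells of TX1072 gave the same genes in a separate protocol that counts 3′ ends. From 257 cells (day 3) to 341 cells (day 2) were used, and median depths were 124651 to 171158 UMIs per cell. Each day was 1 culture, so values carry counting error only and days were not tested against each other. Day 1 alone was sequenced in both High Output and Rapid Run mode, which differ in read length, and its UMI counts pool these runs. Bulk replicate 1 came from the same cell population. Values are UMI CPM, the summed UMIs of a gene relative to all UMIs of the same cells on the CPM scale, with 95% exact Poisson intervals.

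Over days 0 to 4 Pim2 stood at 16.4 (15.1 to 17.7), 147 (143 to 151), 620 (612 to 627), 444 (437 to 451) and 296 (291 to 301) UMI CPM. The median cell held 0, 14, 64, 41 and 25 UMIs of Pim2 on these days. The day 2 level was thus not carried by a few cells.

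Socs3 was sparse in single cells, with 5.49, 0.483, 0.403, 1.06 and 2.64 UMI CPM over the same days. Its day 4 value was 48.1% of that of day 0, on 120 and 215 UMIs, where the TX1072 bulk libraries kept 11.1%. This difference between the protocols was not tested. Bcl3 was at 46.4, 6.06, 0.593, 0.435 and 2.99 UMI CPM. A single cell held 10 of the 14 Bcl3 UMIs of day 3 and 36 of the 136 of day 4. Without 1 capture column (column 10) the Bcl3 value of day 3 was 0.138 UMI CPM. For Socs3 the intervals of day 1 (0.295 to 0.745) and day 2 (0.235 to 0.646) overlapped, on 20 and 17 UMIs, and leaving out a single column gave values down to 0.272 and 0.238, so these days were not told apart at this depth.

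Stat3 was at 50.2, 8.01, 7.07, 4.07 and 16.0 UMI CPM over the 5 days. Lifr was at 44.0, 36.1, 4.94, 3.48 and 9.20 UMI CPM, with its drop between days 1 and 2, and Il6st at 72.1, 44.1, 18.1, 17.9 and 26.1. Pim1 ran from 71.4 over 40.2, 36.9 and 63.1 to 68.9. Pim3 ran from 58.7 over 71.4, 36.1 and 60.9 to 59.1 UMI CPM, lowest at day 2 as in the bulk libraries.

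**Figure D5:**
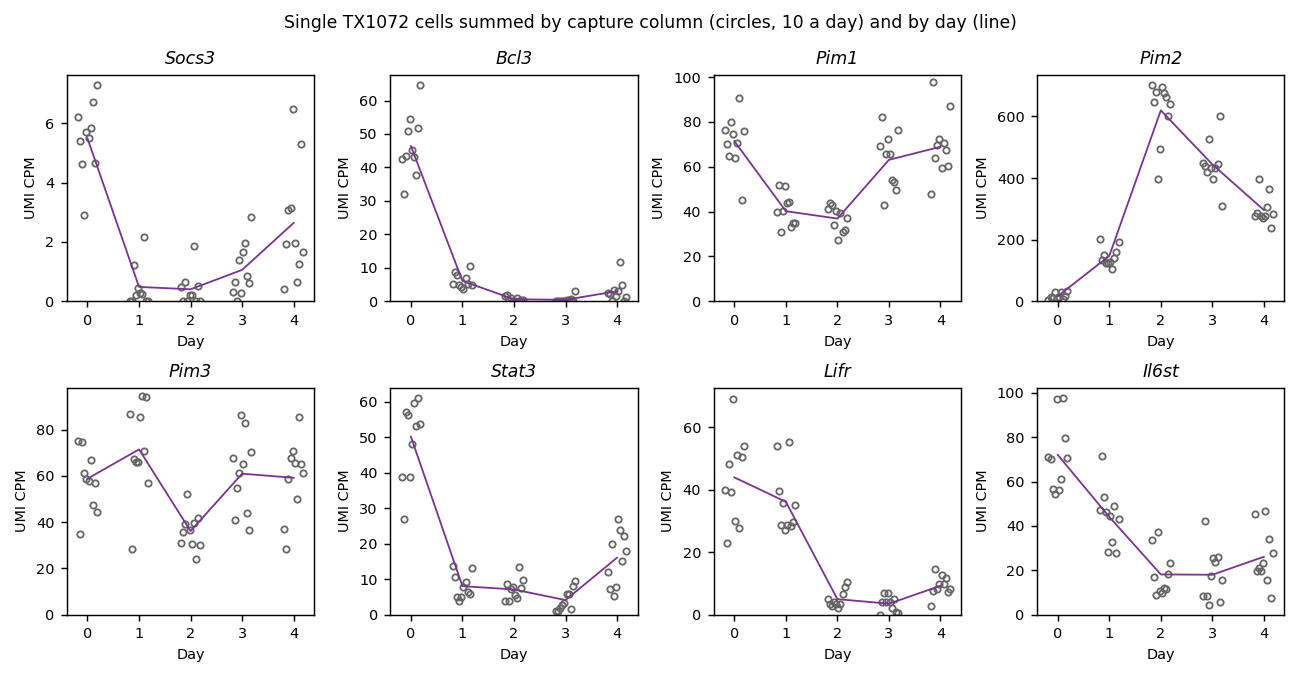
Summed UMI CPM (vertical axis from 0, scaled per gene) of the 8 genes by day in single TX1072 cells, with 1 circle for each of 10 capture columns a day and a line through the values of all cells of a day. Circles of Pim2 at day 2, 396 to 701, lie above all circles of day 0, 4.73 to 31.8.

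Within a day, cells were split into Xist-positive cells with more than 5 Xist UMIs and Xist-negative cells with none. On day 1 Pim2 was at 164 UMI CPM in 189 Xist-positive and at 106 in 70 Xist-negative cells. The pair of values was 651 and 411 on day 2 (294 and 17 cells), 482 and 314 on day 3 (164 and 42 cells) and 358 and 187 on day 4 (161 and 46 cells). Xist-positive cells thus held 1.54, 1.58, 1.54 and 1.91 times as much Pim2, with intervals that did not overlap on any of the 4 days. Over the 8 genes and these days, intervals did not overlap in 15 of 32 pairs. Of these pairs, 8 were higher and 7 lower in Xist-positive cells. The same share over all genes was not counted, so no result about the 8 genes or Pim2 is read from these counts. Cells of 1 culture share their source, so these intervals cover counting error only.

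The other genes held values in both directions. Il6st was at 15.4 UMI CPM in Xist-positive against 39.9 in Xist-negative cells at day 2 and at 19.4 against 33.6 at day 4, and Stat3 at 6.58 against 12.3 and 14.7 against 22.5. On days 1 and 3 both genes ran the other way, with overlapping intervals. Il6st was then at 49.0 against 41.9 and 20.6 against 15.8 UMI CPM, and Stat3 at 7.58 against 5.15 and 4.62 against 2.84. The share of cells with an Il6st UMI was 25.9% against 35.3% of only 17 cells at day 2, and at day 4 it ran the other way, 32.3% against 28.3%, so no order is read from these values. The Stat3 difference at day 2 turned when cells were thinned to 40000 UMIs. Pim3 was at 66.3 against 35.3 UMI CPM at day 4, and lower in Xist-positive cells at day 3 (56.9 against 71.7).

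Allele-resolved UMIs of Pim2 were few, 3, 4, 45, 49 and 11 on days 0 to 4. At day 3, 53.1% of them were B6, with a 95% exact Clopper-Pearson interval of 38.3 to 67.5%, so a shift between alleles was not detectable at this depth.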

How the data were processed

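The authors aligned reads with STAR (version 2.5.2b in the submitters' processing notes) and counted bulk reads per gene with featureCounts and single-cell UMIs with the Drop-seq pipeline; the deposited bulk tables hold raw counts, total and per allele, and the single-cell tables hold UMI counts. ERCC spike-in rows (92 in bulk, with 0% of counts; 75 in single cells, 0.143 to 0.300% of UMIs) were left out. Members and gene lists were chosen with earlier results of these data known. Beyond the 8 genes, named genes were the 4 with the largest change past the threshold in each list at day 1 and day 4, Xist, and the 5 most correlated with Socs3 and Pim2, of which 1 is not reported here. Counts were tested with edgeR 4.0.16 (R 4.3.3; TMM, filterByExpr, quasi-likelihood F-test, two-sided), with 1 fit for TX1072 and 1 for the deletion lines, and with DESeq2 1.42.0 as an alternative. Allele counts were fitted with a term per library, for X-linked genes with at least 50 counts outside the deletion. Scripts were tested on simulated data. The study's methods call the replicates biological, differentiated on different days, and same-numbered libraries deviated together with a median r of 0.126 in TX1072 and 0.133 in the deletion lines (others -0.0678 and -0.078). All replicates of a line are of 1 clone. Spliced and unspliced UMI tables were not used here.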

Additional observations from a re-analysis of the deposited data

Results flagged for a closer look

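Of the 40 sets of 10 capture columns (8 genes, 5 days), 3 held a column far from the others by Dixon's test. Chance sets apart about 1 in 20 where values are normal, and these are sparse counts, for which that rate was not tested. Socs3 at day 2 reached 1.87 UMI CPM in column 7, with the next column at 0.648. Bcl3 at day 3 reached 3.16 in column 10, with the next at 0.571. Bcl3 at day 4 reached 11.8 in column 7, with the next at 4.79. Without these columns the Socs3 value of day 2 was 0.238 in place of 0.403, the Bcl3 value of day 3 was 0.138 in place of 0.435, and that of day 4 was 1.99 in place of 2.99 UMI CPM.

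The log2 ratio of B6 to Cast of Pim2 moved in opposite directions in the deletion lines from day 0 to day 4, by 1.57 in TXdXicB6 and by -0.78 in TXdXicCast, in every library of day 4. The lines differ in which allele can be silenced.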

How the results depend on the processing

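The 96 tested differences of the 8 genes kept their direction and their side of the threshold in 92 cases with DESeq2, 94 with RLE size factors, 96 with TMM factors from autosomal genes, 91 without a filter on low counts and 94 with the replicate block. Of 672 values with 1 library left out, 618 did so, 17 lost the threshold, 9 passed it and 28 turned direction. For the difference between the deletion lines in the step from day 0 to day 1, 915 genes passed, against 1933 with DESeq2, 1395 without a filter, 2209 with the replicate block and 92 to 2789 with 1 library left out. For the change from day 1 to day 4 the count was 149, against 349, 412 and 255 in the same order and 24 to 229 with 1 library left out. Of the 8 genes 0 passed there, against 1 with DESeq2, 1 without a filter, 1 with the replicate block and 0 to 2 with 1 library left out. At day 4 itself 1165 genes differed between the lines, against 1772 with the replicate block and 326 to 1232 with 1 library left out, and 1 of the 8 genes did, against 2 without a filter and 0 to 2 with 1 library left out. The cause was not tested.

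Under settings that kept all libraries and cells, the bulk values that turned direction were close to 0. Bcl3 differed between the lines in the first step by 0.01 on the log2 scale, against -0.0156 with DESeq2, -0.0135 with RLE size factors, -0.0129 without a filter and -0.0134 with the replicate block. Il6st at day 4 went to 0.00401 with DESeq2 and 0.00397 with RLE size factors. In single cells a larger value turned: the log2 ratio of Stat3 between Xist-positive and Xist-negative cells of day 2 was -0.90, and 0.0577 when each cell was thinned to 40000 UMIs. The replicate block changed the call of 1 gene among the 8, Pim2.

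With 1 library left out, direction turned for values within the spread of the libraries, given here as the lowest and highest log2 value. In TX1072 these were Pim1 on day 4 against day 0 (-0.141 to 0.0874) and against day 3 (-0.0843 to 0.115), and Pim3 on day 4 against day 3 (-0.00210 to 0.152). In TXdXicB6 they were Lifr in the first step (-0.196 to 0.0199) and Stat3 (-0.156 to 0.00705) and Pim3 (-0.150 to 0.0442) from day 1 to day 4. In TXdXicCast they were Pim3 in the first step (-0.412 to 0.0664) and Socs3 (-0.192 to 0.0705) and Pim3 (-0.190 to 0.0164) from day 1 to day 4. Between the lines they were Pim1 (-0.280 to 0.0847) and Bcl3 (-0.183 to 0.165) in the first step, Socs3 (-0.0706 to 0.318) and Pim3 (-0.144 to 0.103) in the later change, and Il6st (-0.0387 to 0.0437) and Pim3 (-0.180 to 0.0263) at day 4. The allelic log2 ratio of Pim2 in TX1072 between days 4 and 0 ranged from -0.335 to 0.645. Pim2 from day 1 to day 4 in TXdXicCast passed without a filter (log2 fold change 0.40, adjusted p = 0.00475, edgeR), as did Lifr between the lines at day 4 (log2 fold change -0.50, adjusted p = 0.0130, edgeR).

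The change of Pim2 between alleles counted from day 1, and the difference between the lines in the shift of that ratio, were chosen after seeing the data. Levels near 1 count per library, as for Il11 and Osmr, are limited by depth.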
